A study of Homo sapiens with 9 samples.

Results

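The 55 genes described here copy the genome or prepare it for copying. They encode the origin recognition complex, the proteins that load and start the replicative helicase, the replicative polymerases with their clamp and clamp loaders, and the enzymes that supply deoxynucleotides, join Okazaki fragments and restore chromatin behind the fork. They were taken by symbol from a given list, and the Ensembl identifiers of all 55 were found among the 23727 genes of the deposited count table. All 55 also passed the filter on low counts and were among the 15273 genes tested. The study used RNA sequencing of LN229, a human cell line established from a glioblastoma, to follow the effect of formate, a single-carbon donor of folate metabolism that feeds purine and thymidylate synthesis. Untreated cells at 0 h were compared with cells kept for 8 h and for 24 h in 500 µM sodium formate, with 3 libraries in each group. All groups shared the same culture conditions, a Dulbecco's modified Eagle's medium holding glucose at 17 mM and glutamine at 2 mM, with fetal bovine serum at 10%. The only untreated libraries came from 0 h, so exposure to formate and further hours in culture cannot be told apart. The labels do not say whether the 3 replicates were separate cultures, and the p-values therefore measure only the spread between these libraries, which may be technical.

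As background, replication begins in G1, when the origin recognition complex, CDC6 and CDT1 load rings of the MCM2 to MCM7 proteins onto DNA, a step called licensing. Geminin, the product of GMNN, blocks CDT1 after the start of S phase, so that no origin is licensed again in the same cycle. Each loaded MCM ring becomes an active helicase when CDC45 and the GINS complex join it, and polymerase alpha with primase then starts the strands that polymerases epsilon and delta extend on the sliding clamp PCNA. Many of these genes are transcribed at the G1 to S transition by E2F factors.

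Short promoter sequences are shown here because the 3 genes that passed the test at 24 h, MCM6, UNG and DTL, all carried an E2F word, as did several genes of the same steps. The RefSeq promoter table (GRCh38.p14) holds 250 bases before and 50 bases after each start site, and 48 of the 55 genes matched an entry in it. The words searched, on both strands, were TTTCCCGC, TTTCGCGC, TTTGCCGC and TTTGGCGC. The capitals mark the word, written on the strand of the gene, so a word that lies on the opposite strand appears as its reverse complement. Coordinates are those of the printed windows, each a word with up to 11 bases on each side. MCM6, on the minus strand, held words 152 and 90 bases before its start. Their windows lay at chr2:135876577-135876606 and chr2:135876515-135876544, and each word overlapped a TTTCGCGC word read on the opposite strand. The others were UNG (plus strand, chr12:109098098-109098127), DTL (plus strand, chr1:212035729-212035747), POLA1 (plus strand, chrX:24693770-24693799), PCNA (minus strand, chr20:5126663-5126692), MCM3 (minus strand, chr6:52284898-52284927) and MCM7 (minus strand, chr7:100101566-100101595). In the GENCODE annotation the windows of MCM6, POLA1, PCNA and MCM3 lay outside the gene, and those of UNG, DTL and MCM7 overlapped an exon of it.
MCM6 at 152 bases: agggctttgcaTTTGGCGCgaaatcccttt
MCM6 at 90 bases: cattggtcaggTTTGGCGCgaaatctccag
UNG at 63 bases: gagggaggtttTTTGCCGCgaaaagaccac
DTL at 8 bases: cgtgacgtcagTTTGGCGC
POLA1 at 137 bases: gtcatcacaggGCGCCAAAcgcgcgtccgc
PCNA at 59 bases: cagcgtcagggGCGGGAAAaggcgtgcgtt
MCM3 at 174 bases: cggatggtacgTTTCCCGCcaccgcggggc
MCM7 at 187 bases: cagctcggaccGCGGGAAAcccggcgcctg

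An E2F word was present in 24 of the 48 genes matched (50%). The same words were present in 1090 of all 27305 genes of the promoter table (3.99%) and in 720 of the 11103 tested genes outside the list that matched it (6.48%). The shorter word CCAAT, which NF-Y binds, was present in 30 of the 48 (62.5%) against 43.4% of the tested genes outside the list. The cell cycle homology words TTTGAA and TTCGAA, typical of genes of G2 and mitosis, were present in 4 of the 48 (8.33%) against 15.9%. These are matches of letters in a window and not measured binding sites.

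Library totals ran from 22222298 to 25848242 counts, and levels are given as CPM, library-size-scaled counts corrected by trimmed mean of M values (TMM) factors. The lowest level of any of the 55 genes in any library was 8.58 CPM (POLE2 in untreated replicate 3). Before the TMM correction, 3 counts were worth at most 0.135 CPM. The libraries carried the glioma markers NES (887 to 1011 CPM), CD44 (703 to 1123 CPM) and SOX2 (67.2 to 103 CPM), whereas the astrocyte filament GFAP stayed at or below 0.425 CPM and the leukocyte genes PTPRC, CD68 and ITGAM at or below 0.133 CPM. Of the neuronal and epithelial markers, MAP2 (37.5 to 113 CPM) and KRT18 (89.4 to 184 CPM) were present, EPCAM and CDH1 stayed at or below 0.0851 CPM. Replicate 1 stood apart in the replication genes: 40 of the 55 genes were highest in replicate 1 among the untreated libraries (72.7%, against 43.4% of all genes tested), 29 at 8 h (52.7% against 38.7%) and 48 at 24 h (87.3% against 38.6%). The summed level of the 55 genes was 6794, 5887 and 5528 CPM at 0 h, 6131, 5997 and 5701 CPM at 8 h, and 7328, 6410.1 and 5837 CPM at 24 h. The 3 groups overlapped in this sum, and replicate 1 was the highest of each group.

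**Figure D1:**
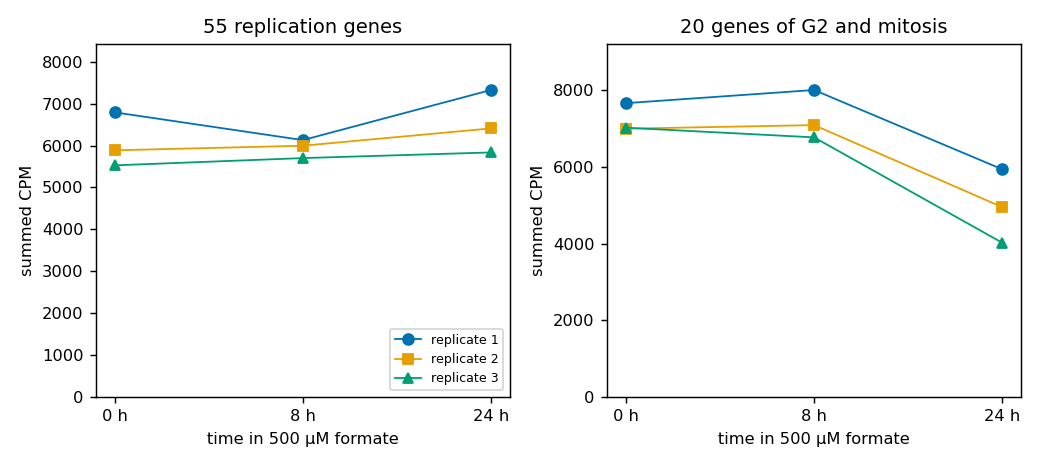
Summed CPM of the 55 replication genes (left) and of 20 genes of G2 and mitosis (right) in each library, against the time in 500 µM formate. Points are libraries, and lines join libraries of the same replicate number. The replication sum overlaps between the groups (5528 to 6794 CPM at 0 h and 5837 to 7328 CPM at 24 h), while the sum for G2 and mitosis is lower in all 3 libraries at 24 h (4023 to 5939 CPM) than in any other library.

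Genes of G2 and mitosis moved at the same time, and their values stand here because they bear on the reading of every gene below. The list of 20 such genes used here was chosen with earlier results of these data known. In it, 19 had a lower level at 24 h than at 0 h, while 50.9% of all genes had a higher one. In the quasi-likelihood test of edgeR (adjusted by the Benjamini-Hochberg method) 10 passed as lower, against 1.77% of all genes tested. Among them were the mitotic cyclin gene CCNB1 (log2 fold change -0.91, adjusted p = 0.0215) and the kinase gene PLK1 (-0.83, adjusted p = 0.0267), both named after their values were seen. The gene that was not lower was NUSAP1, which stayed at or below 1.04 CPM in every library. Their summed level was 6998 to 7665 CPM at 0 h, 6772 to 8008 CPM at 8 h and 4023 to 5939 CPM at 24 h. In bulk RNA, fewer cells at a stage of the cycle and less RNA per cell cannot be told apart. The part of the cell cycle in the results below was not tested.

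At 8 h of formate no replication gene passed the test against 0 h. None of the 55 genes, and 0% of the 15273 genes tested, had an adjusted p under 0.05 in the quasi-likelihood test of edgeR (Benjamini-Hochberg adjusted over all genes tested). The fit with the replicate number as a block and DESeq2 also made 0 calls. At an unadjusted p under 0.05 there were 79 genes in all (0.517%) and 0 of the 55. The fitted log2 fold changes of the 55 genes lay between -0.23 (GINS2) and 0.13 (POLE). Their median was -0.04 against -0.02 for all genes, with 16 genes higher and 39 lower, where 43.3% of all genes were higher. This direction turned without untreated replicate 1 (median 0.04, with 36 higher and 19 lower) and, with the block, without 8 h replicate 1 (0.03, with 38 and 17). It came near even without 8 h replicate 3 (-0.0039, with 27 and 28) and, with the block, without untreated replicate 1 (-0.0031, with 27 and 28).

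At 24 h of formate, 3 replication genes passed the test and all 3 were higher: the helicase subunit gene MCM6, the uracil DNA glycosylase gene UNG and DTL, which encodes a substrate receptor of the CRL4 ubiquitin ligase. Among all genes tested 4.25% were called at this time, 2.47% as higher and 1.77% as lower, so a count of 3 among 55 is close to the background. Of the 55 genes, 34 had a higher and 21 a lower fitted value (50.9% of all genes were higher), from -0.32 (RPA3) to 0.58 (MCM6), with a median log2 fold change of 0.07 against 0.01 for all genes. Leaving out 1 library in turn, without a block, left 0 of the 55 called without untreated replicate 3, 24 h replicate 2 or 24 h replicate 3, 1 called without 8 h replicate 3 or 24 h replicate 1, and 2 called without any of the other 4, while these fits called from 0% to 5.76% of all genes (2.28% without untreated replicate 1). Without a block, the median was -0.01 without 24 h replicate 1 (25 higher and 30 lower), 0.0037 without untreated replicate 3 (29 and 26), 0.14 without untreated replicate 1 (46 and 9) and 0.14 without 24 h replicate 3 (39 and 16). With plain library totals in place of TMM it was 0.14 against 0.08 for all genes, with 42 higher and 13 lower, and 9 of the 55 passed, all higher, against 3.41% of all genes. A fit of only the 2 groups called 0 of the 55 and 0.825% of all genes. When libraries of the same replicate number were compared, the median log2 ratio of the 55 genes was 0.09, 0.10 and 0.04, and 32, 41 and 37 of the genes were higher at 24 h.

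No label says what a replicate number marks, and the pairing of same-numbered libraries was taken from these same data. It did not hold for 24 h replicate 2. More genes passed when the replicate number entered the fit as a block, which compares libraries of the same number. Then 17 of the 55 genes passed at 24 h against 0 h, 16 as higher and 1, the thymidine kinase gene TK1, as lower. Without any single library this count fell to between 4 (without untreated replicate 2 or 24 h replicate 1) and 16 (without untreated replicate 1), with 6 without 24 h replicate 2, 8 without 8 h replicate 2 or 3, 10 without 24 h replicate 3 and 11 without untreated replicate 3, while these fits called from 14.2% to 24.5% of all genes. With all 9 libraries the blocked fit called 24.1% of all genes, 12.6% as higher and 11.6% as lower. DESeq2 without the block called 6 of the 55, all higher (MCM6, UNG, DTL, POLA1, MCM4 and PCNA), and 10.9% of all genes, 5.81% as higher. Counted by range alone, 15 of the 55 genes had all 3 libraries at 24 h above all 3 untreated libraries, against 15.9% of all genes, and 1, ORC5, had all 3 below them, against 14.4%. Leaving out the 3 libraries numbered 1 together, 10 of the 55 passed without a block, 9 as higher and 1 as lower, against 16.9% of all genes.

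**Figure D2:**
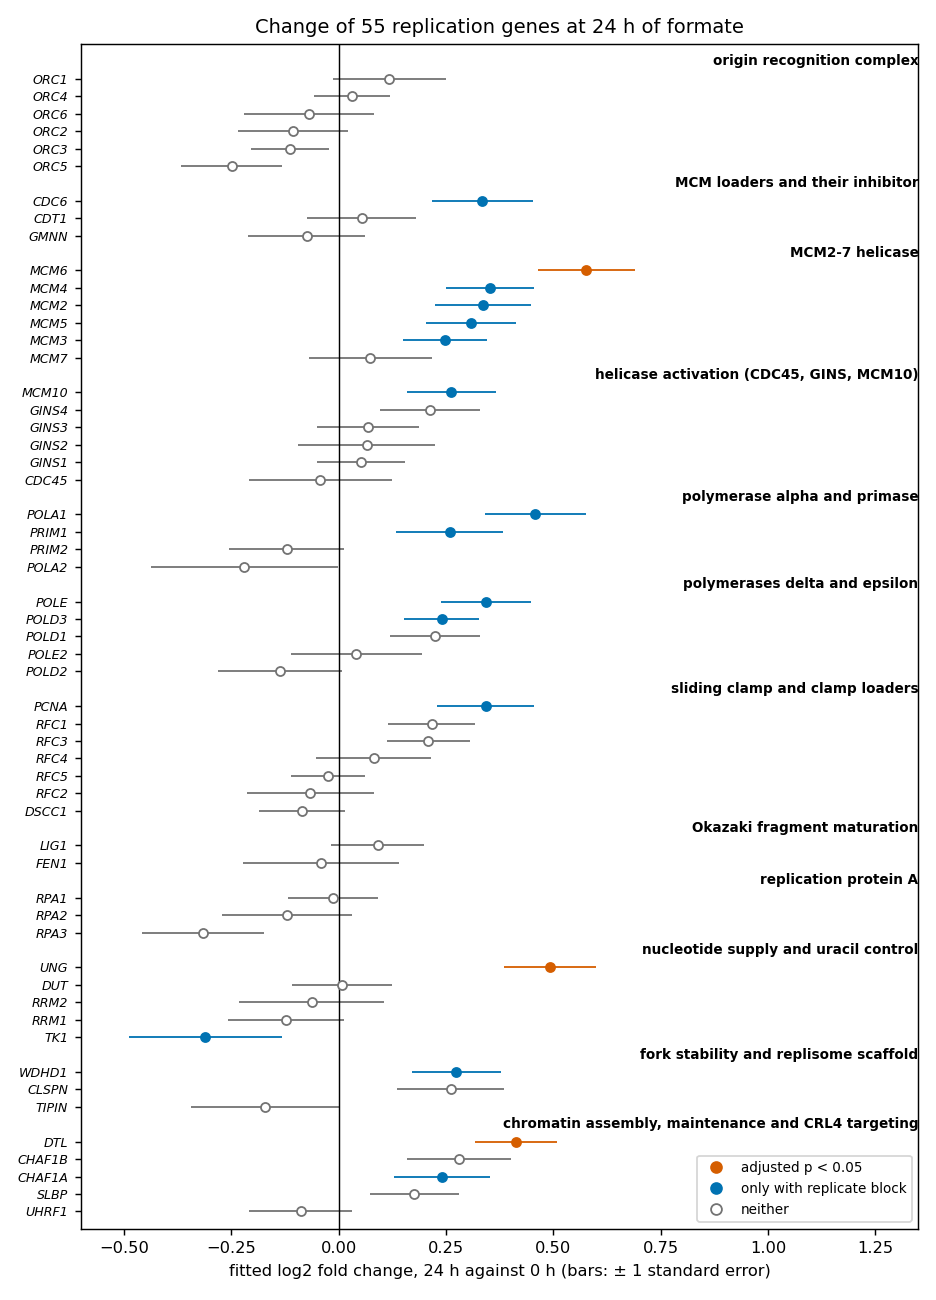
Fitted log2 fold change of each of the 55 genes at 24 h of formate against 0 h, grouped by role, with bars of 1 standard error. Orange marks an adjusted p under 0.05 without a block (MCM6, UNG and DTL), blue an adjusted p under 0.05 only with the replicate number as a block, and open circles neither. Blue and orange points lie to the right of 0 in the helicase genes MCM2 to MCM6, and to the left only for TK1.

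The origin recognition complex, which marks the sites where replication can start, showed no call. Of its 6 genes, 2 had a higher and 4 a lower value at 24 h than at 0 h, with a median log2 fold change of -0.09 and a range from -0.25 (ORC5) to 0.12 (ORC1). ORC5 measured 43.2, 34.5 and 34.6 CPM in the untreated libraries, 40.1, 35.7 and 35.1 CPM at 8 h and 34.1, 31.2 and 29.1 CPM at 24 h. The 3 libraries at 24 h lay below the 3 untreated libraries without overlap, and the lowest was replicate 3. The log2 fold change of -0.25 (SE 0.12) did not pass in edgeR (adjusted p = 0.2, with the block 0.0512). ORC1, the largest subunit, measured 39.8, 44.4 and 45.0 CPM at 0 h, 44.9, 45.6 and 42.5 CPM at 8 h and 56.5, 45.4 and 38.2 CPM at 24 h, where the untreated and 24 h ranges overlapped. ORC2 was lowest in 24 h replicate 1 (34.0 CPM) while the other 8 libraries lay between 41.1 and 49.0 CPM.

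Of the 3 genes that control MCM loading, CDC6 had a higher level at 24 h, and CDT1 and its inhibitor GMNN did not separate from 0 h. CDC6, the ATPase that brings MCM rings to the origin, measured 88.0, 85.1 and 81.0 CPM at 0 h, 82.5, 87.5 and 85.8 CPM at 8 h and 125, 107 and 88.1 CPM at 24 h. All 3 values at 24 h were above every untreated value, by a narrow margin in replicate 3. The log2 fold change was 0.33 (SE 0.12), which passed in edgeR with the block (adjusted p = 0.0369) but not without it (0.115). CDT1, the partner of CDC6, ranged from 47.9 to 66.2 CPM at 0 h and from 54.4 to 62.9 CPM at 24 h. GMNN ranged from 36.9 to 52.5 CPM at 0 h and from 38.9 to 42.7 CPM at 24 h, so both overlapped.

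Among the helicase genes MCM2 to MCM7, MCM6 passed as higher at 24 h without the block, MCM2, MCM3, MCM4 and MCM5 passed in edgeR with it but not without it, and the groups of MCM7 overlapped. All 6 had a higher fitted value at 24 h than at 0 h under TMM, the other 3 scalings of library size and DESeq2, with a median log2 fold change of 0.32 and a range from 0.07 (MCM7) to 0.58 (MCM6). In 5 of the 6, all but MCM7, the 3 libraries at 24 h lay above the 3 untreated libraries, against 15.9% of all genes tested. Among all genes, 2.47% passed as higher without the block and 12.6% with it.

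MCM6 (ENSG00000076003), on the minus strand of chr2:135839626-135876426 in GRCh38, measured 162, 185 and 164 CPM in the untreated libraries, 153, 188 and 168 CPM at 8 h and 282, 244 and 237 CPM at 24 h. The 8 h libraries lay within or just beside the untreated range, and every library at 24 h was above all 6 others. Its log2 fold change at 24 h was 0.58 (SE 0.11, adjusted p = 0.0271, higher in 3 of 3 replicates), and 0.00214 was the adjusted p with the block. Over the 27 alternative settings tried, the log2 fold change stayed between 0.44 and 0.67 and 23 of them kept the call. The call was lost when the fit held only the 2 groups (adjusted p = 0.0517), without untreated replicate 3 (0.0538), without 24 h replicate 2 (0.121) and without 24 h replicate 3 (0.112), each in edgeR without a block.

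MCM4, another helicase subunit gene, measured 245, 243 and 234 CPM at 0 h, 244, 259.6 and 235 CPM at 8 h and 340.2, 303 and 279 CPM at 24 h. All 3 values at 24 h exceeded the 6 others, and replicate 1 was highest. The log2 fold change of 0.35 (SE 0.10) had an adjusted p of 0.0693 without and 0.0112 with the block in edgeR, and 0.0239 in DESeq2. MCM2, whose amino-terminal tail also binds histones, measured 185, 186 and 169 CPM in untreated cells, 183, 188 and 167 CPM after 8 h and 259, 221 and 201 CPM after 24 h. It was again higher in 3 of 3 replicates, with a log2 fold change of 0.34 (SE 0.11, adjusted p = 0.0984, with the block 0.0149, edgeR). Of its exon bases 23.6% overlap a gene on the opposite strand, and the strand setting of the counting is not given in the sources used here. MCM5 and MCM3 had smaller log2 fold changes of 0.31 (219.7 ± 17.5 CPM at 0 h and 272 ± 23.7 CPM at 24 h) and 0.25 (232 ± 18.4 CPM at 0 h and 275 ± 17.3 CPM at 24 h; means ± SD, n = 3), and passed in edgeR with the block (adjusted p = 0.0189 and 0.0429) but not without it (0.106 and 0.143).

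MCM7 measured 447, 367 and 336 CPM in the untreated libraries, 393, 382 and 346 CPM at 8 h and 476, 387 and 347 CPM at 24 h. Here the untreated replicate 1 was nearly as high as the 24 h replicate 1, and the groups overlapped. The log2 fold change was 0.07 (SE 0.14, adjusted p = 0.766, edgeR), although each replicate was higher at 24 h than at 0 h. Its exons hold 8.94% of bases shared with a gene on the opposite strand. Expressed per kilobase of the principal transcript, the level of MCM6 relative to MCM7 was 0.287, 0.399 and 0.387 at 0 h, 0.308, 0.389 and 0.385 at 8 h, and 0.469, 0.499 and 0.540 at 24 h. This ratio was chosen after the values were seen and was not tested. Its 24 h values lay above all others.

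**Figure D3:**
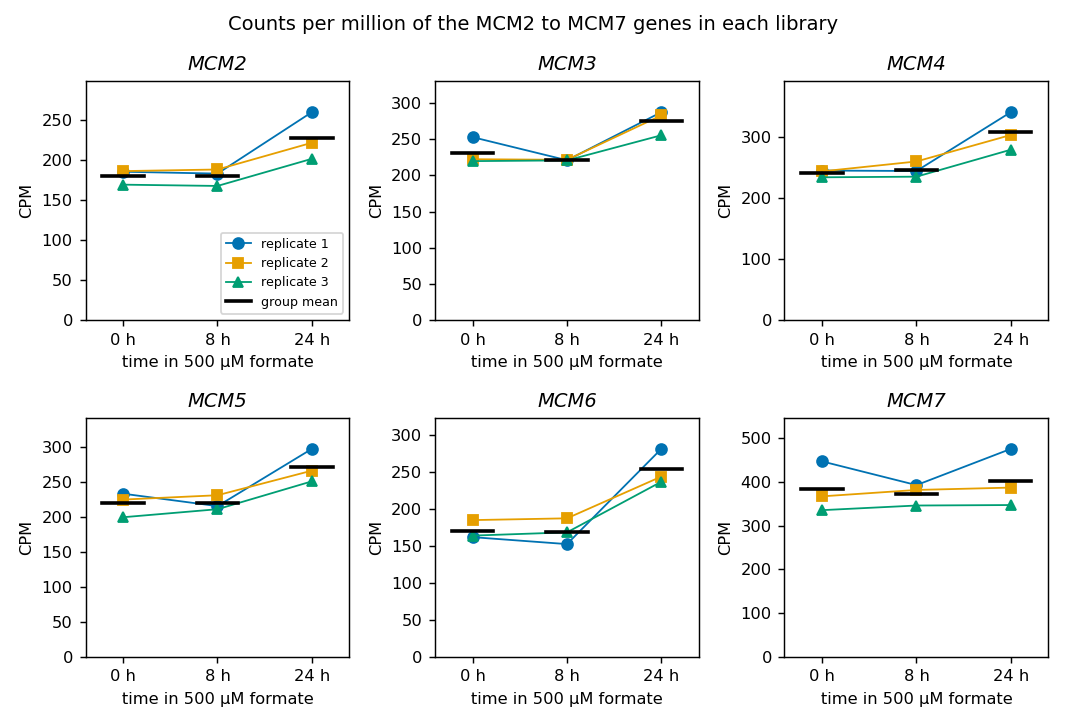
CPM of MCM2 to MCM7 in each library against the time in 500 µM formate. Points are libraries, lines join the same replicate number, and black bars are group means. In MCM2 to MCM6 every point at 24 h lies above every point at 0 h and 8 h, while in MCM7 the groups overlap (336 to 447 CPM at 0 h, 347 to 476 CPM at 24 h).

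Among the 6 genes that turn the loaded ring into a moving helicase, MCM10 had the largest difference and the GINS genes and CDC45 showed no call. MCM10, which helps to activate the helicase, measured 64.2, 61.0 and 59.2 CPM at 0 h, 63.8, 64.9 and 61.0 CPM at 8 h and 83.3, 73.2 and 64.7 CPM at 24 h. The 24 h libraries lay above the untreated ones, although 24 h replicate 3 was only just above untreated replicate 1. That library also lay within the 8 h range. Its log2 fold change of 0.26 (SE 0.10) passed in edgeR with the block (adjusted p = 0.0457) but not without it (0.143). GINS1, GINS2, GINS3 and GINS4, which make up the GINS complex, had log2 fold changes of 0.05, 0.07, 0.07 and 0.21, and CDC45 had -0.04. CDC45 was 126 CPM in untreated replicate 1 and between 83.3 and 113 CPM in the other 8 libraries. Of the exon bases of GINS3 and GINS4, 10.9% and 23.6% overlap a gene on the opposite strand.

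Of the genes of polymerase alpha and primase, which lay down the primers, POLA1 and PRIM1 passed with the block, and POLA2 and PRIM2 in neither fit. POLA1, the catalytic subunit gene, measured 35.3, 38.6 and 36.2 CPM in the untreated libraries, 39.6, 39.7 and 33.6 CPM at 8 h and 55.8, 52.7 and 42.9 CPM at 24 h. All 3 libraries at 24 h were above the 6 others, with replicate 3 the lowest of them. A log2 fold change of 0.46 (SE 0.12) lay just outside the threshold in edgeR (adjusted p = 0.0514) and inside it with the block (0.00579) and in DESeq2 (0.0193). POLA2, the second polymerase subunit gene, had a value of -0.22 (SE 0.22, adjusted p = 0.53, edgeR). It kept its sign in 24 of 27 alternatives and reached 0.13 at the highest. Untreated replicate 1 stood at 33.3 CPM and the other 8 between 17.2 and 21.9 CPM. PRIM1, the catalytic primase subunit gene, measured 27.9, 28.8 and 23.4 CPM at 0 h, 26.6, 30.1 and 25.3 CPM at 8 h and 34.0, 34.0 and 27.8 CPM at 24 h. Its ranges overlapped, each replicate was higher at 24 h, and the log2 fold change of 0.26 (SE 0.12) passed in edgeR with the block (adjusted p = 0.0468, against 0.207 without). PRIM2, its partner, had a log2 fold change of -0.12. Genes on the same strand overlap 35.1% of the exon bases of POLA2 and 16.2% of those of PRIM1.

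Of the 5 genes of polymerases delta and epsilon, 4 had a higher value at 24 h. With the block 2 passed as higher, against 12.6% of all genes. POLE, the catalytic subunit gene of the leading strand polymerase, measured 93.8, 98.9 and 109 CPM in the untreated libraries, 115, 104 and 111 CPM at 8 h and 141, 129.9 and 113 CPM at 24 h. The 24 h libraries were all above the untreated ones, but 24 h replicate 3 lay within the 8 h range. A log2 fold change of 0.34 was fitted (SE 0.11, adjusted p = 0.0828 in edgeR, 0.0306 with the block). POLD3, an accessory subunit gene of polymerase delta, measured 58.9, 54.7 and 55.3 CPM at 0 h, 61.5, 57.5 and 55.2 CPM at 8 h and 66.6, 68.5 and 64.3 CPM at 24 h. The 24 h values again exceeded the 6 others, with a log2 fold change of 0.24 (SE 0.09, adjusted p = 0.12 in edgeR, 0.0439 with the block). The catalytic subunit gene POLD1 had a log2 fold change of 0.22 (adjusted p = 0.202, edgeR), POLE2 of 0.04 and POLD2 of -0.14. POLD2 stood at 242 CPM in untreated replicate 1 and between 163.6 and 193 CPM elsewhere.

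Of the genes of the sliding clamp and its loaders, only PCNA passed with the block. PCNA, the ring that tethers the polymerases, measured 397, 359.8 and 327 CPM in the untreated libraries, 317, 359 and 342 CPM at 8 h and 499, 452 and 423 CPM at 24 h. Each library at 24 h was above all untreated and 8 h libraries, and replicate 1 was highest at both 0 h and 24 h. Its log2 fold change was 0.34 (SE 0.11), with an adjusted p of 0.0965 in edgeR, 0.0212 with the block and 0.0468 in DESeq2. The annotation holds 3 pseudogene copies of PCNA, and how reads shared with them were counted is not given in the sources used here. RFC1 and RFC3, subunit genes of the loader that opens the ring, had log2 fold changes of 0.22 and 0.21 (adjusted p = 0.203 and 0.193, edgeR), and were higher in 3 of 3 replicates. RFC4 had 0.08, RFC5 -0.02 and RFC2 -0.07. DSCC1, of the alternative loader used for cohesion, had -0.09. None of the loader genes passed with the block.

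The genes of Okazaki fragment processing and single-strand binding gave no call. LIG1, the ligase that seals the fragments, measured 77.7, 68.4 and 74.4 CPM at 0 h, 79.3, 74.6 and 74.7 CPM at 8 h and 88.6, 78.9 and 67.3 CPM at 24 h. FEN1, the flap nuclease, stood at 271 CPM in untreated replicate 1 and 246 CPM in 24 h replicate 1, and between 176 and 222 CPM elsewhere. Both overlapped between groups, with log2 fold changes of 0.09 (SE 0.11, adjusted p = 0.61, edgeR) and -0.04 (SE 0.18, adjusted p = 0.902). Replication protein A coats the single strand that the helicase opens. Its 3 genes all had lower fitted values at 24 h, with RPA1 at -0.01, RPA2 at -0.12 and RPA3 at -0.32, and the direction of RPA1 turned under some scalings. RPA3, the smallest subunit, measured 89.4, 70.2 and 58.4 CPM in untreated cells, 57.1, 65.5 and 66.4 CPM after 8 h and 62.8, 55.3 and 57.0 CPM after 24 h. Untreated replicate 1 was the highest library and the groups overlapped; the log2 fold change of -0.32 (SE 0.14) did not pass (adjusted p = 0.184, 0.103 with the block, edgeR).

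Among the genes of nucleotide supply and uracil control, UNG passed as higher without the block and TK1 as lower with it. UNG (ENSG00000076248), on the plus strand of chr12:109097574-109110992, encodes the glycosylase that removes uracil from DNA and measured 44.7, 47.6 and 40.9 CPM in the untreated libraries, 39.9, 47.0 and 41.7 CPM at 8 h and 68.0, 62.8 and 56.7 CPM at 24 h. Every library at 24 h was above all 6 others. Its log2 fold change was 0.49 (SE 0.11, adjusted p = 0.0321, higher in 3 of 3 replicates; 0.00302 with the block, edgeR). The value stayed between 0.41 and 0.56 over 27 alternatives, of which 21 kept the call. Without a block it was lost with only the 2 groups fitted (adjusted p = 0.0639), without untreated replicate 3 (0.0669), without 8 h replicate 3 (0.0554) and without 24 h replicate 1 (0.0589), 2 (0.139) or 3 (0.112). The annotation holds 2 pseudogene copies of UNG. DUT, which hydrolyses dUTP and so keeps uracil out of DNA, had a log2 fold change of 0.01 (adjusted p = 0.968, edgeR), with 135 ± 22.6 CPM at 0 h and 136 ± 4.85 CPM at 24 h (mean ± SD, n = 3), and 8 annotated pseudogene copies. Per kilobase of principal transcript, the level of UNG relative to DUT was 0.289, 0.387 and 0.364 at 0 h and 0.512, 0.468 and 0.452 at 24 h, a ratio chosen after the values were seen and not tested.

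TK1, which salvages thymidine, measured 434, 330.0 and 272 CPM at 0 h, 358, 349 and 285 CPM at 8 h and 333, 261 and 242 CPM at 24 h. Each replicate was lower at 24 h than at 0 h, by different amounts, and the groups overlapped because replicate 1 was highest at every time. TK1 had a log2 fold change of -0.31 (SE 0.18), which passed as lower in edgeR with the block (adjusted p = 0.0364) and not without it (0.28). The ribonucleotide reductase genes RRM1 and RRM2, which make deoxynucleotides from ribonucleotides, had log2 fold changes of -0.12 and -0.06 and did not pass in either fit (adjusted p = 0.581 and 0.835 without the block). RRM2 ranged from 571.7 to 768 CPM at 0 h and from 498 to 773 CPM at 24 h, with replicate 1 highest both times. It has 3 annotated pseudogene copies, and 20.2% of its exon bases overlap a gene on the same strand.

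**Figure D4:**
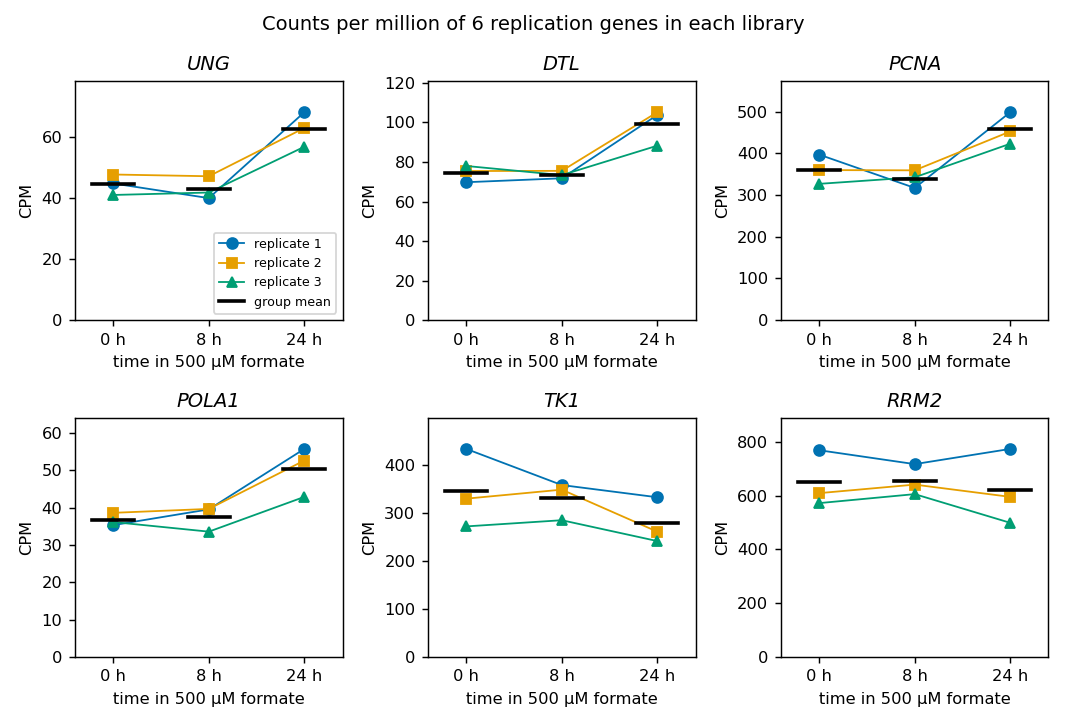
CPM of UNG, DTL, PCNA, POLA1, TK1 and RRM2 in each library against the time in 500 µM formate. Points are libraries, lines join the same replicate number, and black bars are group means. UNG, DTL, PCNA and POLA1 are highest at 24 h in every replicate, TK1 is lower at 24 h than at 0 h in every replicate, and RRM2 overlaps between the times.

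At the fork, WDHD1, the scaffold that links the helicase to polymerase alpha, measured 39.5, 45.9 and 48.1 CPM at 0 h, 46.4, 48.4 and 43.7 CPM at 8 h and 51.3, 58.1 and 52.0 CPM at 24 h. The 24 h libraries lay above the 6 others, and untreated replicate 1 was the lowest. The fitted log2 difference was 0.27 (SE 0.10, adjusted p = 0.132 in edgeR, 0.0463 with the block). CLSPN, which carries the checkpoint signal from a stalled fork to CHK1, had 0.26 (adjusted p = 0.204, 0.0723 with the block) and was higher in 3 of 3 replicates. TIPIN, a partner of TIMELESS in fork protection, had -0.17; its level was 24.7 CPM in untreated replicate 1 and between 13.9 and 20.1 CPM elsewhere.

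Among the 5 genes of chromatin assembly and protein turnover at replicating DNA, DTL passed. DTL (ENSG00000143476), on the plus strand of chr1:212035553-212107400, encodes the receptor through which the CRL4 ligase destroys CDT1 and other proteins bound to PCNA, and it measured 69.8, 75.4 and 78.0 CPM in the untreated libraries, 71.8, 75.5 and 73.4 CPM at 8 h and 104, 105 and 88.3 CPM at 24 h. The 24 h libraries were above all 6 others and replicate 3 was the lowest of them. Its log2 fold change was 0.41 (SE 0.10, adjusted p = 0.0376, higher in 3 of 3 replicates; 0.0076 with the block, edgeR). Without a block this call was lost when only the 2 groups were fitted (adjusted p = 0.0891) and when any 1 of the 9 libraries was left out, with adjusted p from 0.0511 without 8 h replicate 1 to 0.181 without 24 h replicate 2. With the block it was lost only without 24 h replicate 2 (0.0511). The fold change itself stayed between 0.34 and 0.51 over the 27 alternatives.

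CHAF1A, the large subunit gene of the chromatin assembly factor that places histones behind PCNA, measured 71.7, 60.7 and 56.9 CPM in untreated cells, 63.6, 56.0 and 59.5 CPM after 8 h and 82.4, 72.1 and 69.3 CPM after 24 h. Untreated replicate 1 overlapped the 24 h range, each replicate was higher at 24 h, and the log2 fold change of 0.24 (SE 0.11) passed in edgeR with the block (adjusted p = 0.046, against 0.194 without). CHAF1B, the subunit gene of the same factor, had 0.28 (adjusted p = 0.17, 0.0504 with the block). SLBP, which binds replication-dependent histone mRNAs, had 0.18 and UHRF1, which guides DNA methylation to new strands, -0.09, and neither passed.

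Compared directly with 8 h, the 24 h libraries gave the same 3 calls. MCM6 had a log2 fold change of 0.58 (SE 0.11, adjusted p = 0.0248), UNG 0.54 (SE 0.11, adjusted p = 0.0248) and DTL 0.43 (SE 0.10, adjusted p = 0.0334) in edgeR, against 4.56% of all genes called, 2.84% as higher and 1.72% as lower. DESeq2 called 6 of the 55, all higher, against 10.2% of all genes and 5.69% as higher. Without untreated replicate 1, edgeR called 11 of the 55, all higher, against 16.3% of all genes, and with the block as well 23, 20 as higher and 3 as lower, against 34.8%. Plain library totals called 10 of the 55, all higher, against 3.74% of all genes. Of the 55 genes, 42 were higher and 13 lower (52.1% of all genes were higher), with a median log2 fold change of 0.11 against 0.02 for all genes. Without 24 h replicate 1 this median was 0.03, with 33 higher and 22 lower, and with the block but without 8 h replicate 1 it was also 0.03, with 33 and 22. In 18 of the 55 the groups did not overlap with 24 h higher, against 18.2% of all genes, and in 1, ORC5, with 24 h lower, against 16.2%. PCNA stood at 0.43 (adjusted p = 0.0521) and POLA1 at 0.42 (0.0617), both just outside the threshold. Without a block, each of the 3 calls was lost without 8 h replicate 1 (adjusted p = 0.135 for MCM6, 0.141 for UNG and 0.176 for DTL), without 8 h replicate 3 (0.0803, 0.0839 and 0.102), without 24 h replicate 2 (0.109, 0.119 and 0.166) and without 24 h replicate 3 (0.0981, 0.0971 and 0.0971). DTL was then also lost without untreated replicate 3 (0.0507), 8 h replicate 2 (0.0721) and 24 h replicate 1 (0.0572). With the block, MCM6 and UNG passed whichever of the 9 libraries was left out, and DTL was lost without 8 h replicate 3 (0.0516) or 24 h replicate 2 (0.0507). In one test for any difference among the 3 groups, which called 3.64% of all genes, the adjusted p was 0.0271 for MCM6, 0.0304 for UNG and 0.0400 for DTL (edgeR). These 24 h libraries are shared with the comparison against 0 h.

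**Figure D5:**
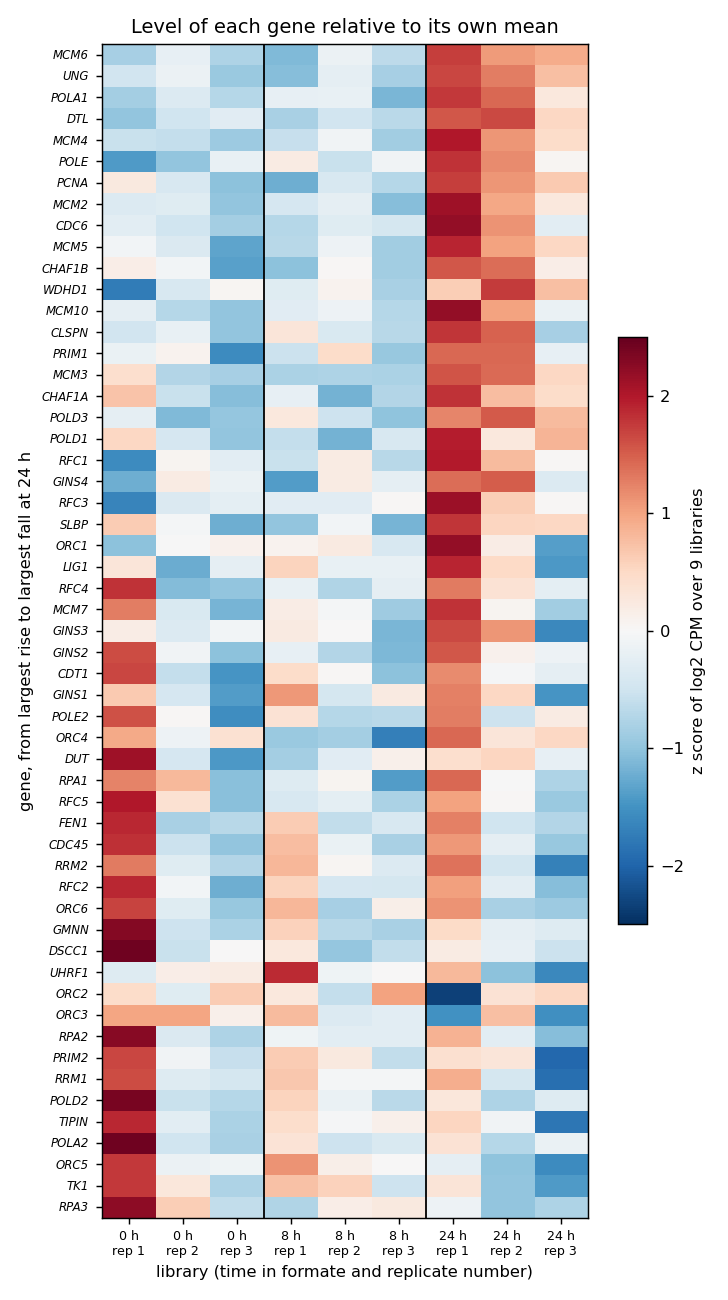
Level of each of the 55 genes in each of the 9 libraries as a z score of log2 CPM over the libraries (red above and blue below the gene's own mean), with genes ordered by the fitted change at 24 h against 0 h. The upper rows (MCM6, UNG, POLA1, DTL) are red in the 3 libraries at 24 h, and many lower rows (RPA3, TK1, POLA2, POLD2) are darkest red in untreated replicate 1.

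A further 64 replication genes outside the list, in 7 groups, gave no call at 24 h against 0 h in edgeR without the block. At an unadjusted p under 0.05 in edgeR there were 17 of these 64 and 16 of the 55, against 26.4% of all genes. Both shares are close to that of all genes. DESeq2 called 3 higher and 2 lower (10.9% of all genes either way), and the block 6 higher and 9 lower (24.1%). Of the 64, 28 had a higher and 36 a lower value, with a median log2 fold change of -0.02. The lowest value, named after it was seen, was that of DTYMK, the thymidylate kinase gene, at 118 to 205 CPM at 0 h and 84.9 to 115 CPM at 24 h (-0.67, adjusted p = 0.0741, 0.000968 with the block).

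Of the kinases and factors that fire origins, DBF4B, a regulatory subunit gene of the CDC7 kinase, had a log2 fold change of -0.50 (adjusted p = 0.0552, 0.00596 with the block, edgeR), from 37.1 to 45.5 CPM at 0 h and from 24.1 to 31.6 CPM at 24 h, without overlap. DBF4, the other regulatory subunit gene, had -0.24 (adjusted p = 0.192, 0.0575 with the block). LRWD1, which stabilises the origin recognition complex on chromatin, had -0.34 and MCM9, an MCM relative of repair, 0.38 (adjusted p = 0.117 for both, 0.0183 and 0.0422 with the block). In the checkpoint list ATRIP, the partner of the ATR kinase, had -0.28, and WEE1, the kinase that holds back CDK1, -0.21. EXO1, a nuclease of repair and of primer removal, had 0.27 and POLB -0.41. Among chromatin genes, NASP, a histone chaperone gene, had 0.28 and MMS22L 0.34. TOP2B, a topoisomerase gene, had 0.32 (adjusted p = 0.0699, 0.0117 with the block) and DDX11 0.30. Against 8 h, 2 of the 64 passed as higher and 1 as lower in edgeR, against 4.56% of all genes, among them SAMHD1, the dNTP hydrolase gene, as higher (adjusted p = 0.0431) and DBF4B as lower (0.0394).

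The genes with and without an E2F word were compared as a description. Of the 24 genes with a word, 19 had a higher fitted value at 24 h than at 0 h. Their median log2 fold change was 0.08, with a range from -0.22 to 0.58. Of these genes, 3 passed as higher without the block and 9 with it, against 2.47% and 12.6% of all genes. Of the 24 matched genes without a word, 11 had a higher value, with a median of -0.02 and a range from -0.31 to 0.28; 0 passed without the block, and 4 as higher and 1 as lower with it. MCM4, MCM5 and POLD3 also passed as higher with the block, but matched no promoter entry and are in neither group. The difference between the groups of genes was not tested. Genes with a word included MCM7, CDT1 and GINS2, whose groups overlapped, and genes without a word included TK1 and RRM2.

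Across the 9 libraries the 55 genes shared much of their variation, which includes the difference between replicate numbers. As a description, the Pearson r of each gene's log2 CPM with the mean z score of the others ran from 0.96 for MCM7 to -0.67 for ORC2, where the libraries share replicate number and group. MCM6, with the largest change at 24 h, had only 0.50. Outside the list, among 10862 tested genes with a mean of at least 5 CPM, those most like the mean z score of the 55 were the purine synthesis gene GMPS (r = 0.97), PARP1 (0.97), the serine synthesis gene PSAT1 (0.96), RBBP8 (0.95), CDK2 (0.94) and APPL2 (0.93). GMPS measured 125, 108 and 96.7 CPM at 0 h and 131, 112 and 103.5 CPM at 24 h, and its order of replicates was the same in both groups. None of these 6 genes passed at 24 h against 0 h.

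Levels differed widely between the genes. Per kilobase of principal transcript, the mean level in untreated cells was highest for PCNA (266 CPM per kb, 240.4 to 292), TK1 (212, 167 to 266.5), RRM2 (189, 167 to 224) and MCM7 (129.6, 113.5 to 151), where TK1 overlapped both PCNA and RRM2 but PCNA and RRM2 did not overlap. The lowest were ORC4 (4.30 CPM per kb, 4.16 to 4.44), CHAF1B (4.59, 4.03 to 4.94), POLE2 (5.84, 4.83 to 6.90), POLA2 (6.13, 4.61 to 8.90) and POLA1 (6.69, 6.44 to 7.04), whose neighbours in this order overlapped. The helicase genes MCM2 to MCM6 lay between 45.6 (MCM6) and 72.2 CPM per kb (MCM3), below MCM7.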

How the data were processed

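RNA was sequenced from 9 libraries of LN229 cells, 3 for each of untreated cells at 0 h and formate for 8 h and 24 h. The authors deposited 1 table of raw counts per gene (23727 Ensembl genes), made with bcl2fastq 2.20.0.422, STAR 2.7.4a and GRCh38 per the submitters' processing notes. The counting program, its annotation and its strand setting are not given in the sources used here, while the library kit is stranded per the labels' protocols. The table held 678 genes with no count in any library and 0 columns of other samples.

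Genes were kept by filterByExpr (15273), scaled by TMM on the deposited totals (factors 0.920 to 1.06), and tested in edgeR 4.0.16 under R 4.3.3 with 1 mean per group over all 9 libraries. P-values were adjusted by the Benjamini-Hochberg method over all genes tested, with a threshold of 0.05. Standard errors are the log2 fold change divided by the square root of F. The biological coefficient of variation was 0.137 without and 0.0956 with the replicate block. Alternatives were RLE, upper quartile or no scaling factors, no filter, DESeq2 1.42.0, a robust spread, only the 2 groups compared, the replicate block, and each library left out. Replicate numbers come from the titles, and no label says what they mark. Over all genes tested, the deviations from the group means of same-numbered libraries correlated at 0.476, 0.432 and 0.414 between 0 h and 8 h and at 0.367, 0.164 and 0.251 between 0 h and 24 h, so these were treated as pairs in the block. Between 8 h and 24 h the values were 0.423, 0.0367 and 0.404. The pairing did not hold for 24 h replicate 2. It correlated more with untreated replicate 3 (0.270) and 8 h replicate 3 (0.134) than with the libraries of its own number. No replicates looked like 1 library deposited more than once (chi-square per degree of freedom 8.51 to 58.6).

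Positions come from GENCODE release 29, which held 98.0% of the identifiers, and symbols from a separate list of gene names. The tests were also run on simulated counts. These held no difference between replicate numbers, so they cannot check the blocked fit on data that hold one. The members and all gene lists were chosen with earlier results of these data known. Values in every library are given for members called at 24 h, for up to 2 per role that passed only with the block, and for the member with the smallest p of each role. From the other lists up to 2 genes each were named by the smallest p, and a gene picked by this rule is not reported here. CHI3L1, CD3E, CDH5 and RBFOX3, on the marker lists, were not analysed here.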

Additional observations from a re-analysis of the deposited data

Results flagged for a closer look

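MCM6, UNG and DTL changed differently after 24 h and after 8 h of formate. Both changes were taken against the same untreated libraries, so their difference is the change from 8 h to 24 h, and it was tested as such in edgeR. The effect at 24 h minus the effect at 8 h was 0.5843 on the log2 scale for MCM6 (-0.01 at 8 h and 0.58 at 24 h), 0.5431 for UNG (-0.05 and 0.49) and 0.4300 for DTL (-0.02 and 0.41). In each of these genes 3 of 3 replicates were higher at 24 h than at 8 h.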

How the results depend on the processing

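At 8 h no setting called any gene. At 24 h against 0 h, DESeq2 called 1594 genes (10.9%) and 6 replication genes, the replicate block 3687 (24.1%) and 17, a fit of only the 2 groups 124 (0.825%) and 0, and the libraries numbered 2 and 3 alone, chosen after seeing the data, 2616 (16.9%) and 10. Plain library totals called 521 genes (3.41%) and 9 replication genes. Leaving out 1 library, with or without the block, gave 0 to 3815 genes and 0 to 16 replication genes. At 24 h against 8 h, where the pairing of replicates 2 was weak, the replicate block called 3130 genes (20.5%) and 13 replication genes, DESeq2 1447 (10.2%) and 6, only the 2 groups 1787 (11.9%) and 7, and replicates 2 and 3 alone 3072 (19.9%) and 8. Plain totals called 571 genes (3.74%) and 10 replication genes, and upper quartile scaling 679 (4.45%) and 5. Leaving out 1 library gave 0 to 5432 genes and 0 to 23 replication genes. The test of any difference called 2986 genes with the replicate block, 2476 in replicates 2 and 3 alone and 0 to 4635 with 1 library left out. Where 1 library is left out an arm holds only 2, and the cause of the other shifts was not tested. Over the 55 genes in 3 comparisons and 27 alternatives no called value reversed: 4241 values were unchanged in their call, 176 gained one and 38 lost one. Most of the 4241 were uncalled values that stayed uncalled. All 38 losses fell on MCM6, UNG and DTL, the only genes that had a call to lose. Of 27 alternatives, 23, 21 and 16 kept their calls at 24 h against 0 h. At 24 h against 8 h, 23, 23 and 18 kept them. No scaling moved the median of all genes by over 0.0736 (log2). The smallest change of a replication gene called at 24 h against 0 h without a block was 0.41 (DTL).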
